A study of Homo sapiens with 42 samples.

Results

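Daunorubicin was given to A375 cells whose p53 had been targeted by siRNA, and 6 of the 42 arrays of the series hold this experiment. The members were chosen by their titles: 3 arrays of p53 siRNA cells with 100 nM daunorubicin and 3 arrays of p53 siRNA cells with 0.065% DMSO, from the first of the 2 DMSO sets that the titles tell apart. A375 is a line of human melanoma cells that carries activated BRAF and functional p53, here in cultures of 27000 cells that were transfected for 48 h and then treated for 26 h. Further arrays used for comparison were GL2 siRNA cells with 100 nM daunorubicin, GL2 siRNA cells with 0.065% DMSO and p53 siRNA cells with 5 uM Nutlin, 3 of each. GL2 is an siRNA against firefly luciferase, which has no target in human cells, and all groups therefore carried an siRNA. Whether the replicates came from separate cultures is not stated, and p-values therefore reflect no more than the spread among these arrays, which may be technical. In RNA from whole cultures, fewer cells of a type and less RNA per cell cannot be told apart.

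Daunorubicin is an anthracycline that slides between DNA bases and traps topoisomerase II on cut DNA, so that double-strand breaks form. Damage of this kind activates p53, a transcription factor that induces CDKN1A, whose product p21 stops cyclin-dependent kinases and thereby lets RB proteins silence the genes of replication and mitosis. Cells also answer damage without p53, through checkpoint kinases that hold the cell before mitosis, through NF-kB and the cytokines it induces, and through the kinases that feed into ATF4. The comparison asks which of the daunorubicin changes are seen when p53 is targeted.

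Values are log2 signals of 1 probe set a gene, each array centred on its median gene, for 19775 genes. A change is the mean with daunorubicin less the mean with DMSO on this scale, ± the standard error of the limma fit, and is relative to the median gene. Called genes had a Benjamini-Hochberg adjusted p under 0.05 in limma and a change of at least 1.5-fold. Of all genes 2377 (12.0%) were called, 1121 (5.67%) higher and 1256 (6.35%) lower with daunorubicin. At the deposited scaling, without centring, 59.9% of the called genes were higher, where 47.2% were with centring. A fit of only these 6 arrays, with its own estimate of the spread, called 31 genes higher and 20 lower, and 2864 genes had an unadjusted p under 0.05 there.

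The library labelled daunorubicin replicate 1 stood apart. Its ratio of 5' to 3' signal was 0.0118 for actin and 0.0509 for GAPDH, where the other 41 arrays lay between 0.649 and 0.945 for actin and between 0.989 and 1.19 for GAPDH. The lowest of these other arrays in both ratios was daunorubicin replicate 2. Of the 9345 genes with a mean signal of at least 100 in either group, 162 were over 4-fold lower in replicate 1 than in the mean of replicates 2 and 3, and 0 were over 4-fold higher. Their median difference was 0.511, with 6817 of the 9345 highest in replicate 1. Without this library 1831 genes (9.26%) were called, 554 (2.80%) higher and 1277 (6.46%) lower, and 514 of the higher and 779 of the lower genes were shared with the fit of all arrays. There 30.3% of the called genes were higher with centring, and 67.6% at the deposited scaling, where the median change of all genes was 0.14 in place of -0.06. Its part in single results was not tested beyond leaving it out, and the lists are counted with and without it below. A pair of libraries labelled replicate 3 of MLN4924 in GL2 and in BRCA1 siRNA cells, which share the fit but enter no comparison here, have BRCA1 levels against their labels. Without that pair and daunorubicin replicate 1, the genes called numbered 1942. A called gene given with 1 value was called the same way in both fits.

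**Figure D1:**
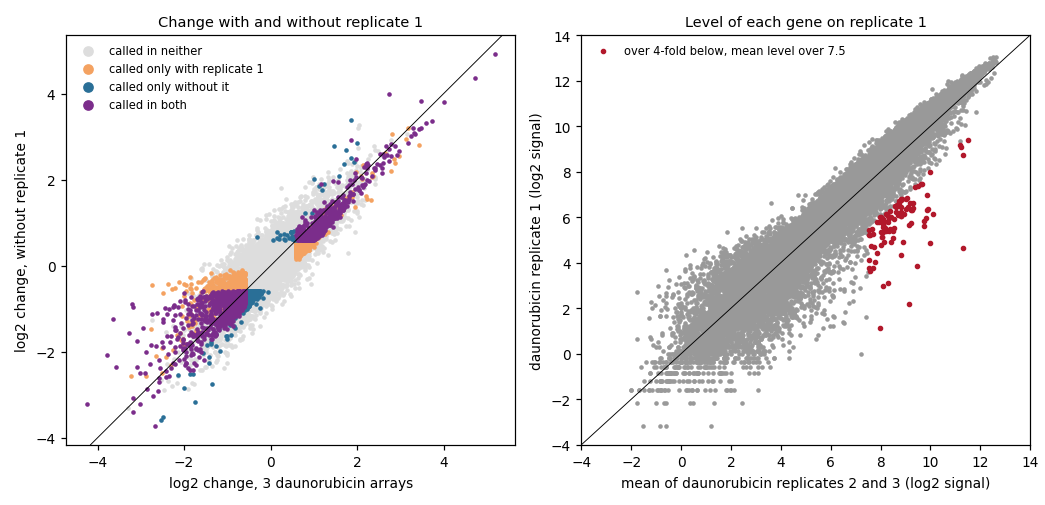
Left, the log2 change of each gene with daunorubicin in p53 siRNA cells, with 3 daunorubicin arrays (x axis) and without replicate 1 (y axis), coloured by where the gene was called. Right, the log2 signal of each gene in replicate 1 (y axis) against the mean of replicates 2 and 3 (x axis), with the line of equality. Dark red points on the right are bright genes over 4-fold lower in replicate 1, which form a tail below the line with no counterpart above it.

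The effect of the siRNA was read from targets of p53, since its own transcript is not analysed here. CDKN1A had a log2 signal of 7.23, 7.57 and 6.95 in p53 siRNA cells with DMSO, against 9.01, 9.10 and 9.25 in GL2 siRNA cells with DMSO. MDM2, the ubiquitin ligase that p53 induces and that degrades it, had 9.46, 9.45 and 9.57 in p53 siRNA cells and 9.89, 10.03 and 9.94 in GL2 siRNA cells with DMSO. For both genes the arrays of the 2 siRNAs did not overlap.

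CDKN1A rose with daunorubicin in p53 siRNA cells all the same. Its log2 signal was 10.05, 9.88 and 10.04 with daunorubicin against 7.23, 7.57 and 6.95 with DMSO, a change of 2.74 ± 0.17 (6.67-fold, adjusted p = 1.7e-12). All 3 daunorubicin arrays lay above all DMSO arrays, and the change was 2.71 ± 0.19 without replicate 1. MDM2 had 10.27, 9.57 and 10.30 with daunorubicin against 9.46, 9.45 and 9.57 with DMSO, with replicate 2 at the level of the highest DMSO array. Its change of 0.55 ± 0.16 missed the fold threshold (adjusted p = 0.012), and was 0.44 ± 0.17 without replicate 1. MDM2 was called higher at the deposited scaling with and without replicate 1, after quantile normalization, and with the second DMSO set. CDT1, which licenses replication origins, had 10.47, 9.74 and 9.73 with daunorubicin against 8.70, 9.10 and 8.88 with DMSO. With centring it was called only with replicate 1 (1.09 ± 0.30, and 0.84 ± 0.32 without it), and at the deposited scaling without replicate 1 too. BRCA1, a repair gene, had 10.22, 9.17 and 9.34 with daunorubicin against 9.05, 9.17 and 9.09 with DMSO and was not called (0.47 ± 0.58, and 0.15 ± 0.65 without replicate 1). These errors use the spread within all groups of the fit, which for BRCA1 includes the pair with levels against their labels. BRCA1 had 7.95, 8.24 and 4.70 with MLN4924 in GL2 siRNA cells and 4.93, 5.28 and 8.18 in BRCA1 siRNA cells.

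The largest increases were led by secreted proteins. IL24, a cytokine first found in melanoma cells, had a log2 signal of 11.46, 10.66 and 10.73 with daunorubicin, against 5.66, 5.95 and 5.70 with DMSO. It rose by 5.18 ± 0.26 (36.3-fold, adjusted p = 1.4e-14), the largest called increase of all genes that met the naming rule, and by 4.93 ± 0.28 without replicate 1. GDF15, a stress cytokine of the TGF-beta family and a p53 target, had 7.76, 8.56 and 9.05 with daunorubicin against 4.97, 5.08 and 4.92 with DMSO. Here replicate 1 was the lowest of the 3 treated arrays, and the change of 3.47 ± 0.25 was 3.82 ± 0.24 without it. TAC1, the precursor of substance P, had 8.50, 7.59 and 7.73 with daunorubicin against 4.18, 4.45 and 4.40 with DMSO (3.6 ± 0.39). The other 9 of the 12 largest were CD24, a surface glycoprotein (3.42 ± 0.42), ALDH1L2, a mitochondrial enzyme of folate metabolism (2.92 ± 0.26), IL6 (2.89 ± 0.43), the calcium-binding S100P (2.78 ± 0.27), CDKN1A, the smooth muscle actin gene ACTA2 (2.61 ± 0.13), GAS6-AS1 (2.58 ± 0.18), the metalloprotease gene ADAMTS6 (2.58 ± 0.33) and DDIT3 (2.54 ± 0.30). The rule that chose these 12 required daunorubicin arrays above the DMSO arrays and a call without replicate 1 too. Replicate 1 was the highest treated array in 9. ADAMTS6 turned to -0.69 when its probe set was picked by the DMSO arrays, so its direction depends on the probe set.

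The largest decreases rested much more on replicate 1. They were CRIP2, ALKBH7, EHBP1L1, UBE2S, MPDU1, EIF5A, AKT1S1, FBXL19, PLK1, ID1, FBF1 and TPGS1. A call without that library as well was a condition of the naming rule. In all 12 replicate 1 was the lowest treated array, and in 11 it lay over 4-fold below the mean of the other treated arrays. EIF5A, a translation factor, had 4.64, 11.06 and 11.52 with daunorubicin against 12.37, 12.16 and 12.22 with DMSO, so that its change was -3.18 ± 0.83 with replicate 1 and -0.96 ± 0.17 without it. CRIP2 had 1.40, 5.88 and 7.11 with daunorubicin against 8.63, 8.42 and 8.68 with DMSO, a change of -3.78 ± 0.65, and -2.08 ± 0.23 without replicate 1. ID1, which blocks basic helix-loop-helix factors, had 6.16, 8.60 and 9.28 with daunorubicin against 10.92, 10.79 and 10.63 with DMSO. Its change was -2.77 ± 0.38 with replicate 1 and -1.84 ± 0.19 without it. A ranking by the change without replicate 1, under the same conditions, was added after the values were seen. That ranking was led by B3GNT7 (-2.60), TFAP2B (-2.55), PLK1 (-2.50), EHBP1L1 (-2.36), MEOX2 (-2.32) and SPACA6 (-2.26). Of these leading genes, only PLK1 and EHBP1L1 were among the 12 above.

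Genes called only with or only without replicate 1 were taken by rule from the fits with centring. Among those called with it alone and chosen by rule were WNT9A (1.72 ± 0.52, and 1.54 ± 0.59 without it), the repair nuclease EXO1 (1.43 ± 0.42, and 1.21 ± 0.47) and the chemokine CXCL8 (1.24 ± 0.38, and 0.99 ± 0.42) upward. Downward they included LTBP3 (-2.73 ± 0.87, and -0.46 ± 0.27 without it), the endocytic GTPase DNM2 (-2.37 ± 0.73, and -0.43 ± 0.21) and CD151 (-2.22 ± 0.65, and -0.51 ± 0.21). The upward changes given stayed over 1.5-fold without replicate 1, with larger standard errors. At the deposited scaling without replicate 1 EXO1 was called higher and CXCL8 was not. Only without it, the secreted glycoprotein STC2 (0.80 ± 0.15, and 0.55 ± 0.16 with it) and the nuclear receptor NR4A1 (0.78 ± 0.23, and 0.47 ± 0.23) rose. In the same fit the mitotic genes PLK4 (-1.15 ± 0.35, and -0.87 ± 0.32 with it), BUB1B (-1.07 ± 0.25, and -0.68 ± 0.26) and CDC25C (-1.04 ± 0.33, and -0.83 ± 0.30) fell.

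**Figure D2:**
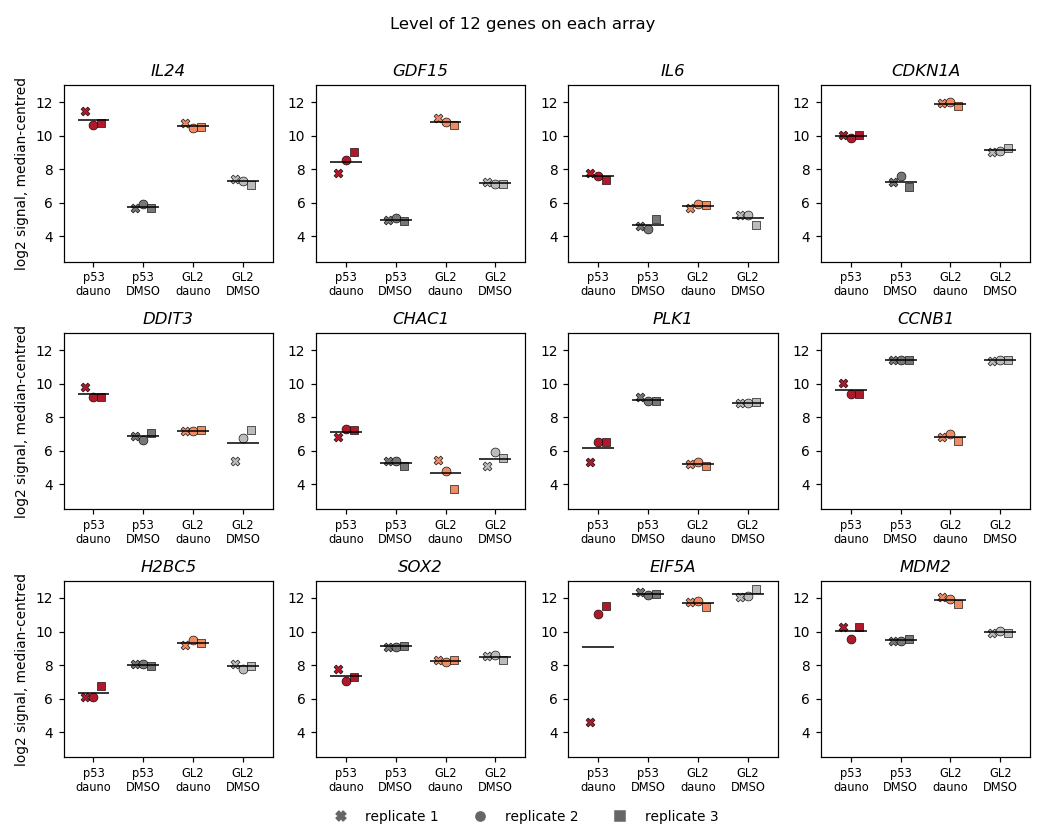
Log2 signal (y axis, median-centred) of 12 genes on each array of p53 siRNA cells with daunorubicin and DMSO and of GL2 siRNA cells with daunorubicin and DMSO. Each point is 1 array with its replicate number as symbol, and the bar is the mean of 3. CDKN1A, IL24 and GDF15 lie higher with daunorubicin in both siRNAs, IL6, DDIT3 and CHAC1 mainly in p53 siRNA cells, and EIF5A shows replicate 1 far below the other treated arrays.

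Targets of p53 rose in p53 siRNA cells, though fewer of them than in GL2 siRNA cells. Of 43 measured targets 19 rose and 1 fell, against 5.67% higher and 6.35% lower of all genes, with a median change of 0.57 for the list and 0.01 for all genes. Without replicate 1 it was 15 and 1, with a median of 0.50, against 2.80% higher and 6.46% lower of all genes. At the deposited scaling 21 of the 43 rose and 0 fell, and 23 and 0 without replicate 1. At that scaling 1465 of all 19775 genes rose and 982 fell, and 1158 and 556 without replicate 1. Among 17 genes of arrest and feedback 8 rose and 0 fell, and 7 and 1 without replicate 1. They included GADD45A, which had 11.70, 11.38 and 11.06 with daunorubicin against 9.63, 9.32 and 9.33 with DMSO (1.95 ± 0.15), TP53INP1 (1.54 ± 0.21), and the sestrins SESN2 (1.23 ± 0.20) and SESN1 (0.88 ± 0.13), which restrain mTORC1. Among 16 genes of cell death 5 rose and 1 fell, and 4 and 0 without replicate 1. The death receptor FAS had 8.97, 8.28 and 8.41 with daunorubicin against 7.08, 6.69 and 6.87 with DMSO (1.67 ± 0.16), TNFRSF10B, the TRAIL receptor DR5, rose by 1.06 ± 0.13 and PMAIP1, which encodes NOXA, by 1.03 ± 0.24. These receptors and NOXA stood apart from DMSO on all 3 arrays. BAX, the pore-forming protein of mitochondria, was the 1 that fell, at 5.59, 7.66 and 8.51 with daunorubicin against 8.56, 8.18 and 8.43 with DMSO. Its change of -1.13 ± 0.36 became -0.30 ± 0.22 without replicate 1 and was not called there, where CCNG1 was the 1 target that fell (-0.66 ± 0.10). Of 4 repair genes 3 rose, and 2 without replicate 1, among them DDB2, which recognises UV lesions (8.94, 8.72 and 8.88 with daunorubicin against 7.46, 7.12 and 7.33 with DMSO, 1.55 ± 0.15) and XPC (0.85 ± 0.17). TP53I3 did not pass the fold threshold (0.36 ± 0.12, and 0.50 ± 0.12 without replicate 1), but was called higher at the deposited scaling without replicate 1.

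Genes of mitosis fell as a group. Of 42 measured genes 26 fell and 0 rose with all arrays, and 32 fell and 0 rose without replicate 1, with medians of -0.85 and -1.03. Of all genes 6.35% fell and 5.67% rose, and 6.46% and 2.80% without replicate 1. In 27 of the 42 the 3 daunorubicin arrays all lay below the 3 DMSO arrays, as did 12.8% of all genes. Replicate 1 was the highest treated array in 33 of the 42. PLK1, the kinase that drives mitotic entry, was among the 6 with replicate 1 lowest, with 5.33, 6.54 and 6.54 with daunorubicin against 9.19, 8.96 and 8.98 with DMSO. Its change was -2.91 ± 0.20 with all arrays and -2.5 ± 0.14 without replicate 1 (adjusted p = 5.9e-13). CCNB1, the mitotic cyclin, had 10.01, 9.39 and 9.37 with daunorubicin against 11.41, 11.40 and 11.40 with DMSO, a change of -1.82 ± 0.16, and -2.03 ± 0.16 without replicate 1. HMMR, a spindle protein, had 9.04, 8.03 and 8.19 with daunorubicin against 10.48, 10.28 and 10.34 with DMSO (-1.95 ± 0.21, and -2.26 ± 0.20 without replicate 1). In these genes the treated arrays all lay below the DMSO arrays. Among kinases and cyclins 7 of 14 fell (9 without replicate 1), among spindle and cytokinesis genes 10 of 15 (12), and among kinetochore and exit genes 9 of 13 (11). Others that fell were AURKA (-1.71 ± 0.13), the motor gene KIF20A (-1.96 ± 0.21), ASPM (-1.65 ± 0.24), BUB1 (-1.27 ± 0.20), CENPE (-1.34 ± 0.21) and CDC20, the activator of the anaphase-promoting complex (-1.86 ± 0.23). At the deposited scaling 25 fell and 0 rose, and without replicate 1 there 24 fell and 1 rose. At that scaling 982 of all 19775 genes fell and 1465 rose, and 556 and 1158 without replicate 1.

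Promoters of PLK1 and HMMR are shown because the p53 and RB pathways are known to silence mitotic genes through a short element near the start site, the cell cycle genes homology region TTTGAA. The sequences run from 250 bases before to 50 after the RefSeq gene start in GRCh38.p14, at chr16:23678639-23678938 (+) for PLK1 and chr5:163460382-163460681 (+) for HMMR, with TTTGAA on either strand in capitals.
PLK1: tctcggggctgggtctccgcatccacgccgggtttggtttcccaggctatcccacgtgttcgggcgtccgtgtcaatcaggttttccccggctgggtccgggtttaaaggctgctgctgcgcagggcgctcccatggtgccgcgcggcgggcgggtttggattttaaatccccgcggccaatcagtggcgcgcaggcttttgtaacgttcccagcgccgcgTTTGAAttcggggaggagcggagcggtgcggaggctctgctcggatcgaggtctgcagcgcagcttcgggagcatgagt
HMMR: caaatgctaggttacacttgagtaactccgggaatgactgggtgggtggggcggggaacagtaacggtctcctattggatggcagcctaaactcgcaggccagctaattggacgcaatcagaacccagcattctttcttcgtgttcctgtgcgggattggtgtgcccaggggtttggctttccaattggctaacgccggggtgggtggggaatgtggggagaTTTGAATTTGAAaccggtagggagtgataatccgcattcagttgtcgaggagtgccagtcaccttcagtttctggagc
The first base of the match lay 29 bases before the start in PLK1 and 28 and 22 bases before it in HMMR, where 2 matches adjoin. Both promoters were picked among those that hold a match. In ASPM, picked the same way and not shown, the match lay 113 bases before the start, on the other strand. TTTGAA on either strand was in 24 of the 35 mitosis promoters in the table and in a promoter of 18.2% of all 27305 genes in the table (15.2% of its 35116 promoters of this length). Of the 22 genes with a promoter entry that fell both with and without replicate 1, 14 held it, and of the 6 called in neither fit, 3 held it. A match of letters is a description of these windows and no evidence of binding.

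**Figure D3:**
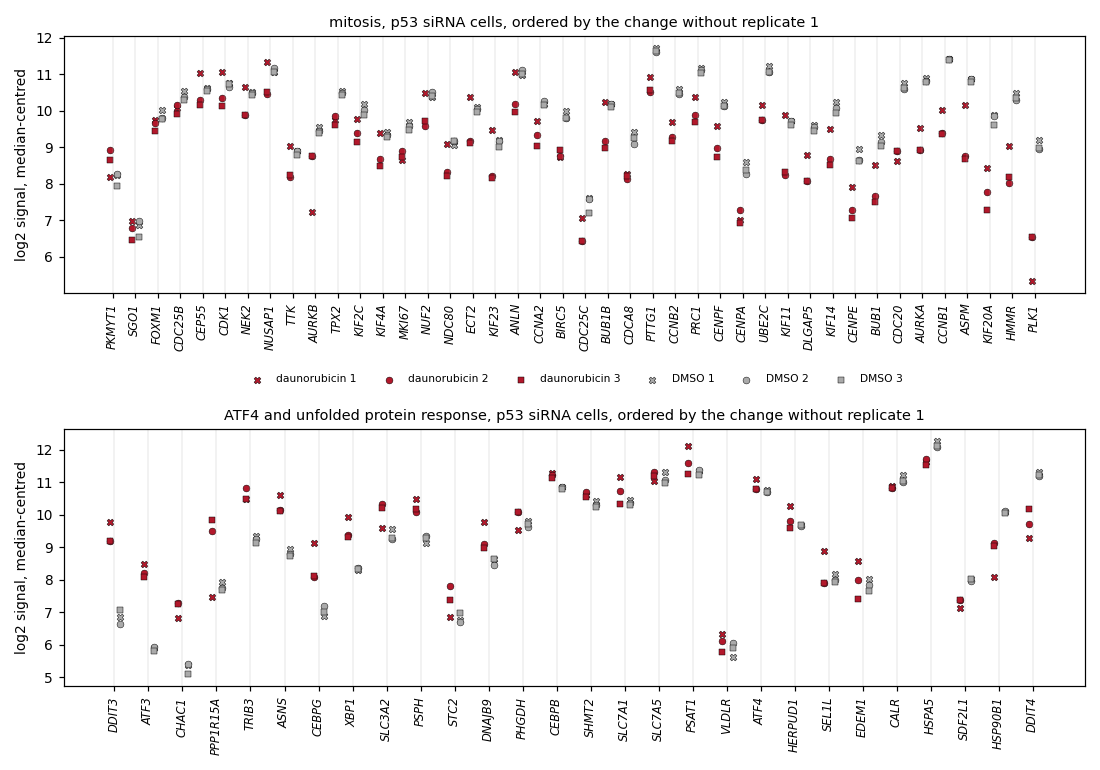
Log2 signal (y axis, median-centred) of every measured gene of the mitosis list (top) and of the ATF4 and unfolded protein response list (bottom) on the 3 daunorubicin arrays (dark red) and 3 DMSO arrays (grey) of p53 siRNA cells. Genes run from left to right by falling size of the change (bottom) or growing size of the decrease (top) without replicate 1. PLK1 is at the far right of the top panel and DDIT3, ATF3 and CHAC1 at the far left of the bottom one.

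Genes of DNA replication did not follow those of mitosis. Of all genes 5.67% rose and 6.35% fell, and 2.80% and 6.46% without replicate 1. Of 46 measured E2F targets 5 rose and 2 fell with all arrays (median 0.21), and 3 rose and 1 fell without replicate 1 (median 0.12). At the deposited scaling 9 rose and 1 fell, with and without that library. At that scaling 1465 of all 19775 genes rose and 982 fell, and 1158 and 556 without replicate 1. Of 12 origin licensing genes 1 rose and 1 fell with all arrays, and 0 and 1 without replicate 1. The call of CDT1, the 1 that rose, was lost there with centring and held at the deposited scaling. MCM6, a subunit of the replicative helicase, fell in both fits (-0.79 ± 0.18, and -1.10 ± 0.16 without replicate 1). MCM6 had 10.53, 9.71 and 9.49 with daunorubicin against 10.75, 10.73 and 10.62 with DMSO. The regulators E2F7 (0.98 ± 0.20), a repressor, and E2F2 (0.81 ± 0.17), an activator, rose in both fits, as did the helicase partner GINS3 (0.94 ± 0.18). E2F7 had 11.41, 10.79 and 10.43 with daunorubicin against 9.98, 9.87 and 9.83 with DMSO, with no overlap. With centring CDC25A, the phosphatase that activates CDK2, rose with all arrays only (1.23 ± 0.35, and 1.02 ± 0.39 without replicate 1). At the deposited scaling it was called higher without replicate 1 too. TK1, thymidine kinase, had 6.61, 9.0 and 9.36 with daunorubicin against 9.20, 9.53 and 9.11 with DMSO, and was called lower only with replicate 1 (-0.95 ± 0.34, and -0.09 ± 0.14 without it). At the deposited scaling without replicate 1 its change was 0.11.

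With centring, repair and checkpoint genes showed few calls that held without replicate 1. Of 21 genes of recombination and Fanconi repair 5 rose and 1 fell with all arrays, and 1 rose and 1 fell without replicate 1. The shares of all genes were 5.67% higher and 6.35% lower, and 2.80% and 6.46% without replicate 1. FANCI, of the Fanconi pair that marks crosslinks, had 10.50, 9.52 and 9.54 with daunorubicin against 8.87, 8.80 and 8.87 with DMSO (1.01 ± 0.23, and 0.69 ± 0.22 without replicate 1). H2AX, the histone that is phosphorylated at breaks, had 9.64, 10.08 and 10.27 with daunorubicin against 11.26, 11.15 and 11.11 with DMSO (-1.18 ± 0.12, and -1.0 ± 0.11). These arrays did not overlap for either gene. With centring BRIP1 (0.91 ± 0.26), RAD51AP1 (0.86 ± 0.22), EXO1 and the helicase BLM (0.72 ± 0.23) rose only with replicate 1. At the deposited scaling without replicate 1 these genes were called higher, and 5 of the 21 rose and 1 fell. At that scaling 1465 of all 19775 genes rose and 982 fell, and 1158 and 556 without replicate 1. Among 25 genes of the damage checkpoint and end joining, 3 rose and 1 fell with all arrays, against 0 and 4 without replicate 1. ATR, the kinase of the replication checkpoint, had 10.71, 9.42 and 9.40 with daunorubicin against 9.16, 9.18 and 9.18 with DMSO, so that the change of 0.67 ± 0.18 was 0.24 ± 0.09 without replicate 1. XRCC6, which encodes Ku70, fell in both fits (-0.62 ± 0.10, and -0.67 ± 0.10), and CHEK2 (-0.63 ± 0.16), NBN (-0.66 ± 0.14) and XRCC5 (-0.61 ± 0.10) only without replicate 1. At the deposited scaling 0 of the 25 fell.

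The target of the drug and the enzymes that handle it were on a list of 18 genes. Of these 2 rose and 4 fell with all arrays, beside 5.67% and 6.35% of all genes. Without replicate 1, 0 rose and 3 fell, beside 2.80% and 6.46%. TOP2A, the topoisomerase of dividing cells, had 10.83, 10.05 and 9.88 with daunorubicin against 11.07, 11.03 and 10.94 with DMSO (-0.76 ± 0.21, and -1.05 ± 0.20 without replicate 1). TOP2B, its partner in resting cells, was not called (-0.10 ± 0.16, and -0.42 ± 0.13). Of 6 reductases 0 rose and 3 fell with all arrays, and 0 and 2 without replicate 1. CBR3, which converts daunorubicin, had 6.54, 6.50 and 7.33 with daunorubicin against 7.74, 7.74 and 7.77 with DMSO (-0.96 ± 0.20), and CBR1 fell only with all arrays (-0.63 ± 0.14, and -0.58 ± 0.15, just under the fold threshold, without replicate 1). ABCB1, the efflux pump P-glycoprotein, had 6.82, 6.0 and 5.88 with daunorubicin against 5.66, 5.37 and 5.27 with DMSO. With centring it was called only with replicate 1 (0.80 ± 0.23, and 0.51 ± 0.23 without it), although its 3 treated arrays all lay above the DMSO arrays. At the deposited scaling ABCB1 and TOP3A were called higher both with and without replicate 1. The pump gene ABCC1 was not called (0.39 ± 0.15).

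Histone genes fell in part. Of 20 replication-type histone genes, whose transcripts normally end in a stem-loop, 6 fell and 0 rose with all arrays and 5 and 0 without replicate 1. Of 11 histone genes known for polyadenylated transcripts 4 fell and 0 rose, and 5 and 0 without replicate 1. Beside these, 6.35% of all genes fell and 5.67% rose, and 6.46% and 2.80% without replicate 1. H2BC5 had 6.09, 6.11 and 6.76 with daunorubicin against 8.08, 8.04 and 7.96 with DMSO (-1.71 ± 0.24, and -1.59 ± 0.27 without replicate 1). H2BC12 had 8.88, 8.37 and 8.82 with daunorubicin against 10.63, 10.48 and 10.48 with DMSO (-1.84 ± 0.12, and -1.93 ± 0.13). The linker histone gene H1-2 had 6.36, 6.55 and 6.95 with daunorubicin against 7.73, 7.52 and 7.81 with DMSO (-1.07 ± 0.16). In all of these the treated arrays lay below the DMSO arrays.

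Genes of the ATF4 pathway rose. ATF4 is translated when the kinases of the integrated stress response phosphorylate eIF2, and it induces genes of amino acid supply together with the stress factors ATF3, DDIT3 and TRIB3. Of 28 measured genes of the ATF4 and unfolded protein list 11 rose and 3 fell, both with all arrays (median 0.36) and without replicate 1 (median 0.33), and 10 of the 11 were shared. Among all genes 5.67% rose and 6.35% fell, and 2.80% and 6.46% without replicate 1. ATF3 had 8.49, 8.21 and 8.08 with daunorubicin against 5.91, 5.92 and 5.80 with DMSO (2.39 ± 0.16, adjusted p = 5.8e-12). DDIT3, which encodes CHOP, had 9.78, 9.19 and 9.19 with daunorubicin against 6.85, 6.64 and 7.06 with DMSO (2.54 ± 0.30, and 2.34 ± 0.34 without replicate 1). CHAC1, which breaks down glutathione, had 6.81, 7.29 and 7.26 with daunorubicin against 5.36, 5.41 and 5.08 with DMSO (1.84 ± 0.32, and 1.99 ± 0.36). In each of these the groups were far apart. ASNS, asparagine synthetase, had 10.60, 10.16 and 10.12 with daunorubicin against 8.95, 8.78 and 8.73 with DMSO (1.47 ± 0.21). TRIB3, which restrains ATF4, rose by 1.37 ± 0.22, CEBPG, its dimer partner, by 1.42 ± 0.25, the serine synthesis gene PSPH by 1.01 ± 0.15 and XBP1, the factor of the unfolded protein response, by 1.21 ± 0.20. PPP1R15A, which recruits the phosphatase of eIF2, had 7.45, 9.51 and 9.84 with daunorubicin against 7.92, 7.74 and 7.68 with DMSO, with replicate 1 below all DMSO arrays (1.15 ± 0.30, and 1.89 ± 0.14 without it). The chaperone genes of the endoplasmic reticulum did not rise: HSP90B1 fell (-1.32 ± 0.21, and -0.99 ± 0.19 without replicate 1), SDF2L1 fell (-0.71 ± 0.18) and HSPA5, which encodes BiP, was below the fold threshold (-0.54 ± 0.11). DDIT4, an inhibitor of mTORC1, fell as well (-1.51 ± 0.13).

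The promoters of ATF3, CHAC1 and ASNS are shown because ATF4 with a C/EBP partner binds the composite element TGATGNAA. They lie at chr1:212565157-212565456 (+) for ATF3, chr15:40953221-40953520 (+) for CHAC1 and chr7:97872359-97872658 (-) for ASNS in GRCh38.p14, from RefSeq, with matches on either strand in capitals.
ATF3: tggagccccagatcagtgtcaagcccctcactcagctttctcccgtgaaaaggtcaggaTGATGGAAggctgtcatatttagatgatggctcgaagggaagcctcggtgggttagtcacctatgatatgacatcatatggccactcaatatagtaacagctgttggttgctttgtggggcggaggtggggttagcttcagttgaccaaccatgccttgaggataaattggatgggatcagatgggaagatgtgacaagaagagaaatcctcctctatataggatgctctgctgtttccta
CHAC1: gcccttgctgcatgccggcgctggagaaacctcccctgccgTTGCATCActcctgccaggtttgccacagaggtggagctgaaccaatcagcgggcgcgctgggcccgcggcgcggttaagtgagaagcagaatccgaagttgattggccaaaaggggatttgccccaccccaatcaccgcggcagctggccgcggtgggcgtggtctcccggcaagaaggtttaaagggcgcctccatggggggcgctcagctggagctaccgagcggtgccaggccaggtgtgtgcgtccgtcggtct
ASNS: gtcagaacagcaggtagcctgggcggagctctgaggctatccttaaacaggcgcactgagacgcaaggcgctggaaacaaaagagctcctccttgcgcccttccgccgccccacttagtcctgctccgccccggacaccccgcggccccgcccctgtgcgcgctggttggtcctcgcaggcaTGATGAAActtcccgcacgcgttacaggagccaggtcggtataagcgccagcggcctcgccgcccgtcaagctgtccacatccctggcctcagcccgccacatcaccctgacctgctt
The promoters shown were picked among those that hold a match, 1 a gene, and a gene can have other starts. Before the start of the window's own transcript, the first base of the match lay 191 bases away in ATF3, 209 in CHAC1 and 68 in ASNS. TGATGNAA was in a promoter of 4.46% of all genes in the table, in 7 of the 26 of this list, in 5 of the 9 with an entry that rose both with and without replicate 1, and in 2 of the 15 called in neither fit.

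Secreted inflammatory factors rose while regulators of NF-kB were split. Of 16 secreted factors 7 rose and 0 fell, and 5 and 0 without replicate 1. Of 10 regulators 1 rose and 3 fell, and 2 and 2 without replicate 1. The shares of all genes were 5.67% higher and 6.35% lower, and 2.80% and 6.46% without replicate 1. IL6 had 7.78, 7.62 and 7.35 with daunorubicin against 4.65, 4.41 and 5.03 with DMSO (2.89 ± 0.43, and 2.79 ± 0.48 without replicate 1). IL1A, an alarm cytokine, had 6.25, 5.70 and 6.17 with daunorubicin against 4.57, 5.03 and 4.77 with DMSO (1.25 ± 0.27), and LIF, of the IL6 family, rose by 0.75 ± 0.15. CXCL3, a neutrophil chemokine, had 6.32, 6.32 and 6.22 with daunorubicin against 5.30, 5.43 and 4.96 with DMSO (1.05 ± 0.24). These cytokine arrays did not overlap with DMSO. CXCL1 was not called (-0.22 ± 0.35). TNFAIP3, the feedback inhibitor A20, rose (0.95 ± 0.17, and 0.72 ± 0.16 without replicate 1), while NFKBIA, which encodes the inhibitor that holds NF-kB in the cytoplasm, fell on its brightest probe set. It had 4.31, 2.63 and 5.55 with daunorubicin against 6.04, 6.53 and 6.31 with DMSO, a dim signal with a wide spread between treated arrays (-2.13 ± 0.39). NFKB2 fell (-0.73 ± 0.16) but had 0.46 as the mean of its probe sets. Of 30 interferon-stimulated genes 0 rose and 1 fell with all arrays, and 0 and 0 without replicate 1.

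The promoters of IL6 and CXCL3 hold an NF-kB motif, GGAAA followed by any base and TCCC, and are shown for that reason, at chr7:22726950-22727249 (+) for IL6 and chr4:74038640-74038939 (-) for CXCL3 in GRCh38.p14, from RefSeq, with the match on either strand in capitals.
IL6: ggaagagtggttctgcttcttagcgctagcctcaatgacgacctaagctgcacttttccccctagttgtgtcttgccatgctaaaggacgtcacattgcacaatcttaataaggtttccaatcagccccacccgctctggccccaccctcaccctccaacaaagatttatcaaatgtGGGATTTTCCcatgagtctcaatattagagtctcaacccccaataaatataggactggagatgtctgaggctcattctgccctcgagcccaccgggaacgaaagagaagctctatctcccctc
CXCL3: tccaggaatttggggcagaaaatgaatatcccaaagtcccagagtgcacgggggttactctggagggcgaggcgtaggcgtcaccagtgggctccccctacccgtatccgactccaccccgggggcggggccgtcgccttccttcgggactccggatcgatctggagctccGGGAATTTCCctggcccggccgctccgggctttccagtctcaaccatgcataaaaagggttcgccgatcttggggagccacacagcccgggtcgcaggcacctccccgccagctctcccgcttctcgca
The first base of the match lay 73 bases before the start in IL6 and 79 in CXCL3. The motif was in a promoter of 0.678% of all genes in the table and in 8 of the 22 of this list, in 3 of the 5 with an entry that rose both with and without replicate 1, and in 4 of the 13 called in neither fit.

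Immediate early genes and output of the MAPK pathway, which BRAF drives in these cells, were mixed. EGR1, a growth-response factor, had 9.53, 8.65 and 8.90 with daunorubicin against 6.82, 6.52 and 6.72 with DMSO (2.34 ± 0.24, and 2.09 ± 0.26 without replicate 1). JUN rose by 0.74 ± 0.12, KLF4 by 1.21 ± 0.15 and MYC by 1.13 ± 0.16. MYC had 8.18, 8.21 and 7.76 with daunorubicin against 7.04, 6.98 and 6.75 with DMSO, with no overlap. Among all genes 5.67% rose and 6.35% fell, and 2.80% and 6.46% without replicate 1. Of 16 immediate early genes 5 rose and 2 fell, and 5 and 0 without replicate 1. Of 18 MAPK output genes 2 rose and 2 fell, and 3 and 4 without replicate 1, with DUSP5, an ERK phosphatase, higher (0.64 ± 0.10) and IER3 lower (-0.85 ± 0.15) in both fits.

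Called genes of the metabolic and protein turnover lists were mostly lower, beside 5.67% higher and 6.35% lower of all genes, and 2.80% and 6.46% without replicate 1. At the deposited scaling without replicate 1, 1158 of all 19775 genes were higher and 556 lower. Of 21 NRF2 targets 0 rose and 5 fell, and 0 and 6 without replicate 1 (0 and 2 at the deposited scaling without it). PIR had 9.47, 8.92 and 9.01 with daunorubicin against 10.01, 9.89 and 9.93 with DMSO (-0.81 ± 0.14), and NQO1, a reductase, was not called (-0.37 ± 0.13). Of 17 genes of sterol and fatty acid synthesis 0 rose and 3 fell, and 0 and 5 without replicate 1. SREBF1, their regulator, had 7.24, 7.34 and 7.51 with daunorubicin against 8.50, 8.37 and 8.28 with DMSO (-1.02 ± 0.14). Of 25 proteasome subunits 0 rose and 5 fell, and 0 and 8 without replicate 1 (0 and 2 at the deposited scaling without it). The change of PSMD3 was -1.98 ± 0.46 with replicate 1 and -0.81 ± 0.19 without it. Of 23 hypoxia targets 1 rose and 2 fell, and 1 and 4 without replicate 1, with the angiogenic factor VEGFA higher (1.32 ± 0.23, and 0.96 ± 0.21 without replicate 1) and the glycolytic gene ALDOC lower (-1.09 ± 0.17). Of 18 ribosome biogenesis genes 1 rose, RRP12 (0.97 ± 0.16), and 0 fell, in both fits. Of 21 cullin-RING ligase genes 1 rose and 0 fell with all arrays, DTL, the adaptor that delivers CDT1 for degradation (1.37 ± 0.30, and 1.06 ± 0.31 without replicate 1, where 1 other gene fell). Of 13 BCL2 family genes 1 rose and 1 fell with all arrays and 0 and 0 without replicate 1, and of 24 TGF-beta and matrix genes 2 rose and 3 fell, and 1 and 2 without it. With all arrays the counts of the hypoxia, BCL2 and TGF-beta lists lay near those shares. Of 7 CDK inhibitors and RB family genes 0 rose and 1 fell, and 0 and 2 without replicate 1. CDKN2D, the inhibitor p19, fell in both fits (-1.59 ± 0.30, and -0.87 ± 0.17), and CDKN1B, the inhibitor p27, fell only without replicate 1 (-0.51 ± 0.12, and -0.74 ± 0.09).

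**Figure D4:**
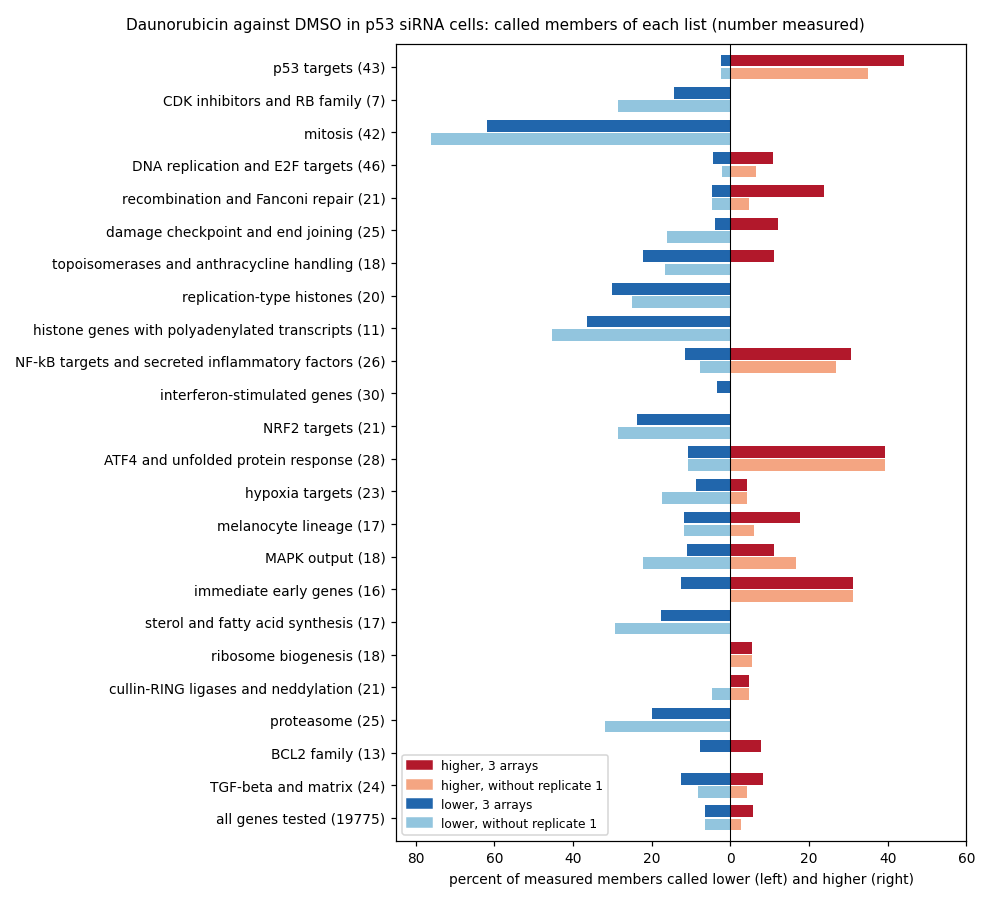
Percent of the measured members of each gene list (y axis, number measured in brackets) called lower (left, blue) and higher (right, red) with daunorubicin in p53 siRNA cells, with all 3 daunorubicin arrays (dark) and without replicate 1 (light). The bottom row gives all genes tested. The mitosis list reaches furthest to the left, with 26 and 32 of 42 genes, and p53 targets and the ATF4 and unfolded protein list furthest to the right.

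Fixed markers of melanocytes and of other cell types were also read. Of 8 melanocyte markers 7 were measured, and MITF, SOX10 and S100B lay above the median of all values in both groups, whereas TYR, PMEL and MLANA did not. Their summed signal was 1388.5 to 1543.5 with daunorubicin and 2040.9 to 2177.0 with DMSO. S100B had 7.10, 6.66 and 7.21 with daunorubicin against 8.61, 8.45 and 8.64 with DMSO (-1.58 ± 0.23). SOX10, the neural crest factor, had 9.61, 9.38 and 9.48 with daunorubicin against 10.54, 10.34 and 10.32 with DMSO (-0.91 ± 0.24). MITF, the master regulator of melanocytes, had 9.28, 8.15 and 8.44 with daunorubicin against 7.82, 7.73 and 7.57 with DMSO (0.92 ± 0.22, and 0.59 ± 0.20 without replicate 1). All 3 genes separated the groups. Of the 17 genes of the wider melanocyte list 3 rose and 2 fell, and 1 rose and 2 fell without replicate 1. Beside these, 5.67% of all genes rose and 6.35% fell, and 2.80% and 6.46% without replicate 1. Among markers of other cell types, the summed signal was 2442.5 to 3024.5 with daunorubicin and 2783.2 to 3079.5 with DMSO for 12 epithelial genes, and 569.3 to 693.0 with daunorubicin and 552.5 to 693.5 with DMSO for 12 fibroblast genes. For 9 leukocyte genes it was 601.6 to 653.7 with daunorubicin and 295.1 to 338.4 with DMSO. The epithelial markers KRT8, KRT14 and KRT18 lay above the median of all values in both groups. So did the fibroblast markers COL1A1, DCN and LUM, and POSTN with daunorubicin only. A level above that median therefore did not set melanocyte markers apart from those of other cell types. Of the leukocyte markers only LYZ, lysozyme, lay above the median of all values, and it rose (1.37 ± 0.29). EPCAM, an epithelial adhesion gene, rose at a low level (1.93 ± 0.40), and FAP, a fibroblast marker, was called lower only with replicate 1 (-1.75 ± 0.61). The part of these markers in the results was not tested.

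The daunorubicin change was then compared with that in GL2 siRNA cells, where p53 had not been targeted. In GL2 siRNA cells 1283 genes (6.49%) rose and 1964 (9.93%) fell. The difference between the changes, p53 siRNA less GL2 siRNA, was called for 3035 genes (15.3%) by limma's interaction contrast, 1909 (9.65%) of them positive and 1126 (5.69%) negative. Without replicate 1 it was called for 2686 (13.6%), 1402 (7.09%) positive and 1284 (6.49%) negative. Of the called genes 62.9% were more positive in the main fit and 52.2% after quantile normalization.

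Nearly all genes of mitosis and replication differed between the siRNAs. In GL2 siRNA cells 42 of 42 mitosis genes and 45 of 46 replication genes fell, with medians of -4.06 and -2.63, where the medians in p53 siRNA cells were -0.85 and 0.21. The difference was called more positive with p53 siRNA for 40 mitosis genes and 45 replication genes, and more negative for 0 of either. It was 40 and 44 without replicate 1. Of all genes 6.49% rose and 9.93% fell in GL2 siRNA cells. The difference was positive for 9.65% of all genes and negative for 5.69%, and for 7.09% and 6.49% without replicate 1. CCNB1 had 6.82, 6.97 and 6.61 with daunorubicin against 11.37, 11.38 and 11.39 with DMSO in GL2 siRNA cells, a change of -4.58 ± 0.16 and a difference of 2.76 ± 0.23. CDC45, a part of the replicative helicase, had 0.92, 1.04 and 0.77 with daunorubicin against 7.36, 7.07 and 7.5 with DMSO in GL2 siRNA cells. In p53 siRNA cells it had 7.43, 7.34 and 7.28 with daunorubicin against 7.20, 7.14 and 6.57 with DMSO, with a difference of 6.78 ± 0.33. Its signal in GL2 siRNA cells with daunorubicin was far below 6.07, the median of all log2 values, so that the size of the difference is not well determined. The same holds for the repressor E2F8 (6.47 ± 0.72), the helicase partner GINS2 (6.12 ± 0.43) and the mitotic motor KIFC1 (4.98 ± 0.80), with 1 or more of those arrays below 2.5. Other differences chosen by rule were DTL (6.09 ± 0.42), CDC25A (5.73 ± 0.50), ZNF367 (5.59 ± 0.43) and RAD51AP1 (4.90 ± 0.31). CDT1 (4.66 ± 0.42) and BRCA1 (3.75 ± 0.83) differed too, and the error of BRCA1 includes the spread of the pair with levels against their labels. PLK1 fell by 3.65 ± 0.20 in GL2 siRNA cells, with a difference of 0.74 ± 0.28 that was not called (adjusted p = 0.066). Without replicate 1 the difference was 1.15 and was called. Of 21 recombination and Fanconi repair genes 18 fell in GL2 siRNA cells, and the difference was more positive for 17.

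Targets of p53 differed in part. In GL2 siRNA cells 31 of 43 rose and 0 fell, with a median of 1.19. The difference was more negative with p53 siRNA for 18 and more positive for 2, and for 23 and 1 without replicate 1. Of all genes 6.49% rose and 9.93% fell in GL2 siRNA cells. The difference was negative for 5.69% of all genes and positive for 9.65%, and for 6.49% and 7.09% without replicate 1. MDM2 rose by 1.93 ± 0.16 in GL2 siRNA cells, and its difference was -1.38 ± 0.22 (adjusted p = 3.0e-05). TP53INP1 differed by -2.14 ± 0.29, TP53I3 by -2.18 ± 0.17, BAX by -2.18 ± 0.51 and the lipid transporter gene ABCA12, which had a low signal in p53 siRNA cells, by -5.50 ± 0.99. CDKN1A and GDF15 showed no called difference: CDKN1A rose by 2.78 ± 0.17 in GL2 siRNA cells, with a difference of -0.04 ± 0.24 (adjusted p = 0.94), and GDF15 by 3.67 ± 0.25, with a difference of -0.20 ± 0.35 (adjusted p = 0.78). The levels of both genes were higher in GL2 siRNA cells with daunorubicin: CDKN1A had 11.94, 12.01 and 11.74 and GDF15 had 11.07, 10.83 and 10.61 there, above every array of p53 siRNA cells with daunorubicin or DMSO.

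The ATF4 list moved the other way. In GL2 siRNA cells 1 of 28 rose and 9 fell, with a median of -0.28, and the difference was more positive with p53 siRNA for 15 and more negative for 1 (14 and 1 without replicate 1). CHAC1 was not called in GL2 siRNA cells (-0.87 ± 0.32) and differed by 2.71 ± 0.46. ASNS differed by 2.07 ± 0.30 and TRIB3 by 2.05 ± 0.31, each falling in GL2 siRNA cells, by 0.60 ± 0.21 and by 0.68 ± 0.22. ALDH1L2 differed by 3.43 ± 0.36, and MYC, which fell by 1.56 ± 0.16 in GL2 siRNA cells, by 2.69 ± 0.22. IL6 was not called in GL2 siRNA cells (0.76 ± 0.43) and differed by 2.13 ± 0.60. Replication-type histone genes rose in 5 and fell in 0 of 20 in GL2 siRNA cells, and the difference was more negative for 6 of them. Beside the counts of these lists, 6.49% of all genes rose and 9.93% fell in GL2 siRNA cells. The difference was positive for 9.65% of all genes and negative for 5.69%, and for 7.09% and 6.49% without replicate 1. The most negative differences chosen by rule were GASK1B (-3.87 ± 0.43), ALKBH7 (-3.70 ± 1.28, and -1.29 without replicate 1), H2BC9 (-3.49 ± 0.44), MVP (-3.27 ± 0.55), TPGS1 (-3.23 ± 0.89, and -1.71 without replicate 1), LEMD1 (-3.21 ± 0.26), EHBP1L1 (-3.12 ± 0.74, and -1.91 without replicate 1) and H2BC5 (-3.11 ± 0.34). H1-2 (-2.98 ± 0.23), ID1 (-2.95 ± 0.54) and S100B (-1.93 ± 0.33) differed as well.

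**Figure D5:**
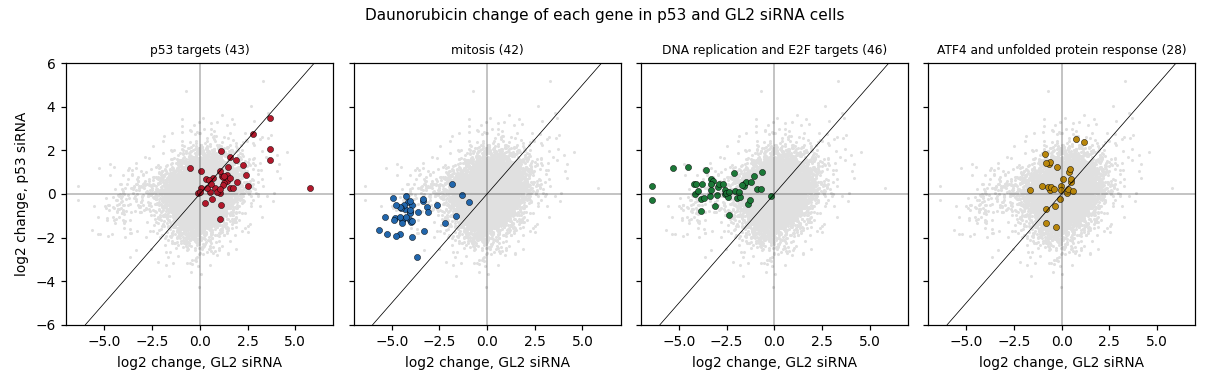
Log2 change of each gene with daunorubicin in p53 siRNA cells (y axis) against that in GL2 siRNA cells (x axis), all genes in grey and 1 gene list in colour a panel, with the line of equal change. Mitosis genes lie above the line with medians of -0.85 and -4.06, replication genes near 0 on the y axis, and ATF4 genes mostly above the line.

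Daunorubicin was last set against Nutlin, which keeps MDM2 from binding p53 and damages no DNA, in p53 siRNA cells. This direct contrast of treated arrays shares no control. It called 2311 genes (11.7%), 1433 (7.25%) higher and 878 (4.44%) lower with daunorubicin, and without replicate 1 it called 1269 (6.42%), 629 (3.18%) higher and 640 (3.24%) lower. Higher genes were 62.0% of the calls, and 51.9% after quantile normalization. A fit of only these 6 arrays called 13 genes, and 2293 had an unadjusted p under 0.05 there. Nutlin itself, against DMSO, changed 11 genes (0.0556%), 8 higher (0.0405%) and 3 lower (0.0152%), among them CDKN1A, the damage sensor gene DDB2, TP53INP1, ACTA2 and MIR34A, the locus of a microRNA that p53 induces. Without daunorubicin replicate 1, which enters that contrast only through the shared estimate of spread, it changed 46 genes, 14 higher and 32 lower.

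Single genes of several lists were higher with daunorubicin than with Nutlin. IL24 was 4.98 higher, TAC1 3.87, CD24 3.20, GDF15 2.80, ALDH1L2 2.62, DDIT3 2.56, EGR1 2.49 and IL6 2.48 higher on the log2 scale, and CDKN1A 0.86. Of 43 p53 targets 16 were higher and 1 lower than with Nutlin, and 12 and 0 without replicate 1. Of 28 ATF4 and unfolded protein genes 11 were higher and 3 lower, and 13 and 2 without replicate 1. Of 16 secreted inflammatory factors 3 were higher and 0 lower, and 4 and 0 without replicate 1. Of 42 mitosis genes 0 were higher and 20 lower, and 0 and 26 without replicate 1. Among all genes 7.25% were higher and 4.44% lower than with Nutlin, and 3.18% and 3.24% without replicate 1. PLK1 (-2.41), CRIP2 (-3.42, and -1.72 without replicate 1), UBE2S (-2.88, and -1.18 without it) and B3GNT7 (-2.73) were among the largest decreases. MDM2 was not called (0.07, adjusted p = 0.84).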

How the data were processed

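RNA of A375 cells was measured on 42 arrays. The deposited table holds linear signal intensity for 54675 probe sets, which the authors computed with Expression Console of Affymetrix, as the submitters' processing notes name it, with the same trimmed mean on every array. Background and scan batch were not tested here, and the number of arrays limits the precision. Gene names came from the platform annotation of GEO: 41091 carried 1 symbol, 1801 several and 11721 none, and 41037 matched by Entrez identifier.

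Zeros (147 values) were raised to the lowest positive signal, 0.1. A gene was its probe set of highest mean log2 signal. Array medians ran from 5.63 to 6.35 before centring. Tests used limma 3.58.1 in R 4.3.3 (lmFit, contrasts.fit, eBayes) on 1 fit of all 14 groups, with 28 residual degrees of freedom, and Benjamini-Hochberg adjustment over all genes. The fit was also run on simulated arrays, with a normal spread for each gene that was equal on every array. These held no array like daunorubicin replicate 1 and no pair against its labels, so the run does not cover such arrays. Replicate numbers did not pair arrays (correlations of deviations 0.047, 0.037 and 0.007).

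The rule for named genes took the 12 largest called changes each way, also called without replicate 1, not overlapping and with a signal of at least 100; up to 6 called only with or only without replicate 1; 8 each way in other comparisons; and called members and up to 6 others of each of 26 lists (563 of 613 genes measured). Members and lists were chosen with earlier results of these data known. Promoters came from RefSeq's table. Alternatives were other scalings, probe sets, pseudocount, filters, DMSO sets, spread estimates, thresholds, array weights, the replicate block and leaving out arrays. Those that combine a setting with leaving out replicate 1 were chosen after seeing the data. Python 3.11.15, numpy 2.4.6, pandas 2.3.3 and matplotlib 3.10.9 made tables and figures.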

Additional observations from a re-analysis of the deposited data

Results flagged for a closer look

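The daunorubicin change differed between p53 and GL2 siRNA cells in limma's interaction contrast for 3035 genes, and the genes of this kind that the text names follow, as the log2 change in p53 siRNA cells less that in GL2 siRNA cells. Differences were positive for CDC45 (6.78), E2F8 (6.47), GINS2 (6.12), DTL (6.09), CDC25A (5.73), ZNF367 (5.59), KIFC1 (4.98), RAD51AP1 (4.90), CDT1 (4.66), BRCA1 (3.75), ALDH1L2 (3.43), CCNB1 (2.76), CHAC1 (2.71), MYC (2.69), IL6 (2.13), ASNS (2.07) and TRIB3 (2.05). They were negative for ABCA12 (-5.50), GASK1B (-3.87), ALKBH7 (-3.70), H2BC9 (-3.49), MVP (-3.27), TPGS1 (-3.23), LEMD1 (-3.21), EHBP1L1 (-3.12), H2BC5 (-3.11), H1-2 (-2.98), ID1 (-2.95), TP53I3 (-2.18), BAX (-2.18), TP53INP1 (-2.14), S100B (-1.93) and MDM2 (-1.38). CDC45, E2F8, GINS2 and KIFC1 had a very low signal in GL2 siRNA cells with daunorubicin, so that the sizes of their differences are not well determined. ABCA12 had a low signal in p53 siRNA cells. All of these differences include daunorubicin replicate 1. The sizes for ALKBH7, TPGS1 and EHBP1L1 were smaller without it, as given above. For BAX and ID1, replicate 1 was the lowest treated array of p53 siRNA cells. Groups of 3 arrays were too small for a test of single arrays that lie far from their group.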

How the results depend on the processing

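Counts of called genes depended on how the spread was estimated. Fits of only the groups compared called 51 genes for daunorubicin against DMSO, 1260 for the difference from GL2 siRNA cells and 13 for daunorubicin against Nutlin, and without replicate 1 as well 620, 2478 and 2. At a 2-fold threshold the counts were 976, 1687 and 812. Against Nutlin, 1269 were called without replicate 1, 1410 without that library and the pair with BRCA1 levels against their labels, and 1314 at the deposited scaling without replicate 1. Leaving out each array in turn gave 1831 to 3084 genes for daunorubicin against DMSO, 2609 to 3817 for the difference and 1269 to 3333 against Nutlin. With the replicate number as a block, the counts were 2345, 2967 and 2271. With array weights, whose estimate stopped short of its convergence tolerance and gave replicate 1 a weight of 0.0697, 34.6% of called genes were higher with daunorubicin, against 47.2% with equal weights.

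Over 602 single results and all alternatives, 14 values turned their sign. With the mean of all probe sets these were HDAC9 (-0.775), NFKB2 (0.463, and 0.931 for the difference), ATF3 (-0.213) and CCNE1 (-0.63) for the difference, and TNFAIP2 (0.043) against Nutlin. With the brightest probe set on DMSO arrays they were ADAMTS6 (-0.693), HDAC9 (-1.482) and, for the difference, ATF3 (-0.246). With the second DMSO set they were ITGA3 (0.244), RFC5 (-0.251) and SOD2 (-1.061) for the difference, and at the deposited scaling without replicate 1 IFI35 (0.02) and TK1 (0.111). Of 198 called single genes, 150 stayed called the same way without replicate 1, 197 with the block, 184 at the deposited scaling and 24 in the fit of only 6 arrays. The last setting has 4 residual degrees of freedom in place of 28, and the causes of the other changes were not tested.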

Other observations

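The families below were chosen after their values were seen. Beside their counts, 5.67% of all genes rose and 6.35% fell with daunorubicin in p53 siRNA cells, 2.80% and 6.46% without replicate 1, and 6.49% rose and 9.93% fell in GL2 siRNA cells. At the deposited scaling without replicate 1, 1158 of all 19775 genes rose and 556 fell in p53 siRNA cells. SOX genes, transcription factors of development, fell more often than they rose with daunorubicin in p53 siRNA cells. Of 19 SOX genes 1 rose, SOX13, and 7 fell, and the counts without replicate 1 were the same, while at the deposited scaling without it 1 rose and 4 fell. SOX2 had a log2 signal of 7.78, 7.07 and 7.27 with daunorubicin against 9.10, 9.06 and 9.16 with DMSO (-1.74 ± 0.22). SOX5 had 9.19, 8.54 and 8.54 with daunorubicin against 10.40, 10.30 and 10.38 with DMSO (-1.61 ± 0.14). SOX11 had 6.21, 5.94 and 6.15 with daunorubicin against 8.08, 7.93 and 8.13 with DMSO (-1.95 ± 0.17). That the groups did not overlap in these 3 genes was a condition of their choice. In GL2 siRNA cells 0 of the 19 rose and 1 fell. TFAP2B (-2.35 ± 0.24), MEOX2 (-1.98 ± 0.20), and the intermediate filament gene NES (-2.10 ± 0.16), known from neural stem cells, fell too. A call without replicate 1 as well was a condition of their choice. Of the ID genes ID1 and ID3 (-1.79 ± 0.26) fell, 2 of 4 measured.

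Zinc finger genes with a ZNF symbol rose more often than they fell, 111 against 15 of 466 with all arrays, 51 against 17 without replicate 1 and 108 against 4 at the deposited scaling without it. In GL2 siRNA cells 25 rose and 52 fell, near the shares of all genes there. Of 44 core and linker histone genes of the replication clusters 0 rose and 11 fell in p53 siRNA cells, 0 and 8 without replicate 1 and 0 and 8 at the deposited scaling without it. Of the same genes 11 rose and 2 fell in GL2 siRNA cells. ND6, of the mitochondrial genome and the gene on its light strand that codes for a protein, had 9.70, 10.16 and 9.97 with daunorubicin against 11.99, 11.81 and 12.11 with DMSO (-2.03 ± 0.15). It was the only one of 7 measured mitochondrial genes called lower, and it fell by 1.83 ± 0.15 in GL2 siRNA cells. KLF5 (2.17 ± 0.25) and CTH, which makes cysteine (2.19 ± 0.17), rose with and without replicate 1, which was a condition of their choice. Of 1039 bright genes called lower without replicate 1, 668 were lower in replicate 2 than in replicate 3, and of 392 called higher there 193 were.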
